A study of Mus musculus with 99 samples.

Results

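The opioid receptor genes are Oprm1, Oprd1, Oprk1 and Oprl1, which encode the mu, delta and kappa opioid receptors and the nociceptin receptor. They were taken by gene symbol and are 4 of the 55335 genes counted in these libraries. RNA was sequenced in bulk from tissue punches of 5 brain regions of juvenile wild-type C57BL/6 mice of both sexes. Of the 5, VTA is the ventral tegmental area with its dopamine neurons and NAc is the nucleus accumbens of the ventral striatum. VBT stands for the ventrobasal thalamus, which relays touch and pain to the cortex, and S1 and PrL are 2 cortical areas, primary somatosensory and prelimbic. In the exposed groups the dams drank fentanyl at 10 µg/ml from embryonic day 0 until weaning, so the pups met the drug before birth and while nursing, and in the control groups the dams drank water. How much drug each pup took in is not given, nor which libraries came from one litter or one animal, so p-values measure only the spread between these libraries. Region, sex and exposure made 20 groups, of which 19 had 5 libraries and the water males of S1 had 4.

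All 4 receptors belong to the family of 7-transmembrane receptors that signal through the inhibitory Gi and Go proteins. When an agonist binds, adenylyl cyclase is inhibited, inwardly rectifying potassium channels of the GIRK type open and calcium channels close, so that the neuron fires less and releases less transmitter, and kinases and arrestins then desensitize the receptor. Fentanyl is an agonist with a strong preference for the mu receptor. Mu receptors on GABA neurons release dopamine neurons of the VTA from inhibition, kappa receptors on dopamine neurons and their terminals lower dopamine release, and delta receptors act in cortex and striatum. The nociceptin receptor has a similar structure but does not bind the classical opioid peptides or naloxone with useful affinity.

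The coding sequences show how alike the members are, which bears on whether a read can be given to a single receptor. These windows hold 60 bases from the coding sequence of the first GENCODE M21 transcript of each gene (build GRCm38), 5′ to 3′ on the coding strand. They span bases 283 to 342 in Oprm1, 226 to 285 in Oprd1, 256 to 315 in Oprk1 and 223 to 282 in Oprl1, counted from 1 at the start of the coding sequence, and were chosen as the most conserved stretch of that length. Capitals mark the 43 positions at which all 4 have the same base.
Oprm1: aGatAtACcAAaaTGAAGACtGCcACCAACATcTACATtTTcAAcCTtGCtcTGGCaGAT
Oprd1: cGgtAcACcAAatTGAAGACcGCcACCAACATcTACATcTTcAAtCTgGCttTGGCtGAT
Oprk1: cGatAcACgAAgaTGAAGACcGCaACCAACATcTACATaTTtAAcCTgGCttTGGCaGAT
Oprl1: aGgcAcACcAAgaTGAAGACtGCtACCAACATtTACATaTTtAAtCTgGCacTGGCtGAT
Even in this stretch the other 17 bases differ in at least 1 member. Over the whole coding sequences, identity between pairs was between 64.7% (Oprk1 and Oprl1) and 70.3% (Oprm1 with Oprd1). The longest run of bases shared exactly by a pair had 25 bases, GACTACTACAACATGTTTACCAGCA, in Oprk1 and Oprl1, and every other pair shared at most 23. Reads longer than these runs differ between the receptors by sequence.

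Oprm1 (ENSMUSG00000000766) lies on chromosome 10 at 6758506-7038198 on the plus strand and has 31 annotated transcripts, 17 of them coding. Its exons cover 8037 bases, of which 96 (1.19%) also belong to Ipcef1 on the opposite strand. Oprd1 (ENSMUSG00000050511) lies on chromosome 4 at 132110726-132144486 on the minus strand with 4021 exon bases. Oprk1 (ENSMUSG00000025905) lies on chromosome 1 at 5588466-5606131 on the plus strand with 9151 exon bases. Oprl1 (ENSMUSG00000027584) lies on chromosome 2 at 181715016-181720985 on the plus strand with 3753 exon bases. Outside Oprm1, no exon base of the receptors is shared with another annotated gene.

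The library VTA male water 3 had counts for 6333 genes, against 24079 to 27347 in the other 98, and was left out. The 98 libraries held 23032078 to 52069639 counts, with a median of 36024982. Kept punches scored above those of other regions on their own marker list, by the mean log2(CPM + 1) of marker genes, where CPM is a count scaled to a library total of 1000000: dopamine neuron markers scored 3.94 to 6.47 in VTA and at most 1.78 elsewhere, thalamic relay markers 6.41 to 8.22 in VBT and at most 4.94 elsewhere, striatal projection neuron markers 7.22 to 8.93 in NAc and at most 6.54 elsewhere, and cortical projection neuron markers 6.12 to 6.95 in S1 and PrL and at most 5.51 elsewhere. Some punches also held transcripts of neighbouring tissue. VBT female water 2 scored 7.08 on choroid plexus markers, above its relay score of 6.99, and VBT male water 3 scored 6.54 on striatal markers, above its relay score of 6.41. Olfactory bulb markers scored 5.66 in PrL male water 3, 4.83 in PrL female water 5 and 2.64 in PrL male water 4, against at most 1.22 in the other PrL libraries. These 5 libraries, all from water groups, were kept, and fits without them were added after the data were seen. Libraries of both exposure groups that stayed in those fits held such transcripts too. Choroid plexus markers scored 5.18 in VTA male water 2 and 4.44 in VBT male fentanyl 5, whose striatal score was 5.37 beside a relay score of 7.21. Serotonin neuron markers, of the raphe next to the VTA, scored above the dopamine neuron markers in 8 of 19 VTA libraries, 6 of them after fentanyl, with 6.98 against 3.94 in VTA male fentanyl 1 and 6.22 against 4.41 in VTA female water 1; the lowest were 1.07 and 2.28 in VTA male fentanyl 5 and 4. With the serotonin score as a covariate in VTA, added after the data were seen, no receptor was called by edgeR for fentanyl against water. Of all genes, that fit called 0 in females, 4220 in males and 4573 with the sexes averaged. All 4 receptors passed the filter on low counts in every region. The counts behind them differ: Oprl1 had a median of 1653 counts per library, Oprd1 625, Oprk1 471 and Oprm1 only 64. In the 98 libraries the lowest Oprm1 count was 19 (VBT). The standard errors of the fold changes below were widest for Oprk1 (0.28 to 0.54), against 0.22 to 0.39 for Oprm1, 0.12 to 0.46 for Oprd1 and 0.05 to 0.12 for Oprl1.

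Each receptor had its own order of regions. In libraries exposed to water, 33 of the 40 differences between 2 regions passed the test (edgeR's quasi-likelihood test over 48 libraries, averaged over the sexes, adjusted p under 0.05 over 21468 genes). Regions differ at most genes, so these counts have to be read against the share of all genes called. All 4 receptors were called between VTA and S1 (67.6% of all genes called), VTA and PrL (66.5%), VTA and NAc (64.8%), VBT and NAc (67.8%) and PrL and NAc (50.3%). Of the 4, 3 were called between VTA and VBT (52.5%), VBT and S1 (68%) and VBT and PrL (68.4%), and 2 between S1 and PrL (37.3%) and S1 and NAc (53.3%). With 4 genes in each comparison, these counts are too small to judge against the shares of all genes. They say nothing particular about the receptors. Without the 5 libraries with neighbouring tissue, 33 of the 40 were again called, with Oprd1 between VTA and VBT gained and Oprm1 between VBT and PrL lost. In punches, fewer cells of a type and less RNA per cell cannot be told apart. The plot of CPM by region and group shows every library.

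**Figure D1:**
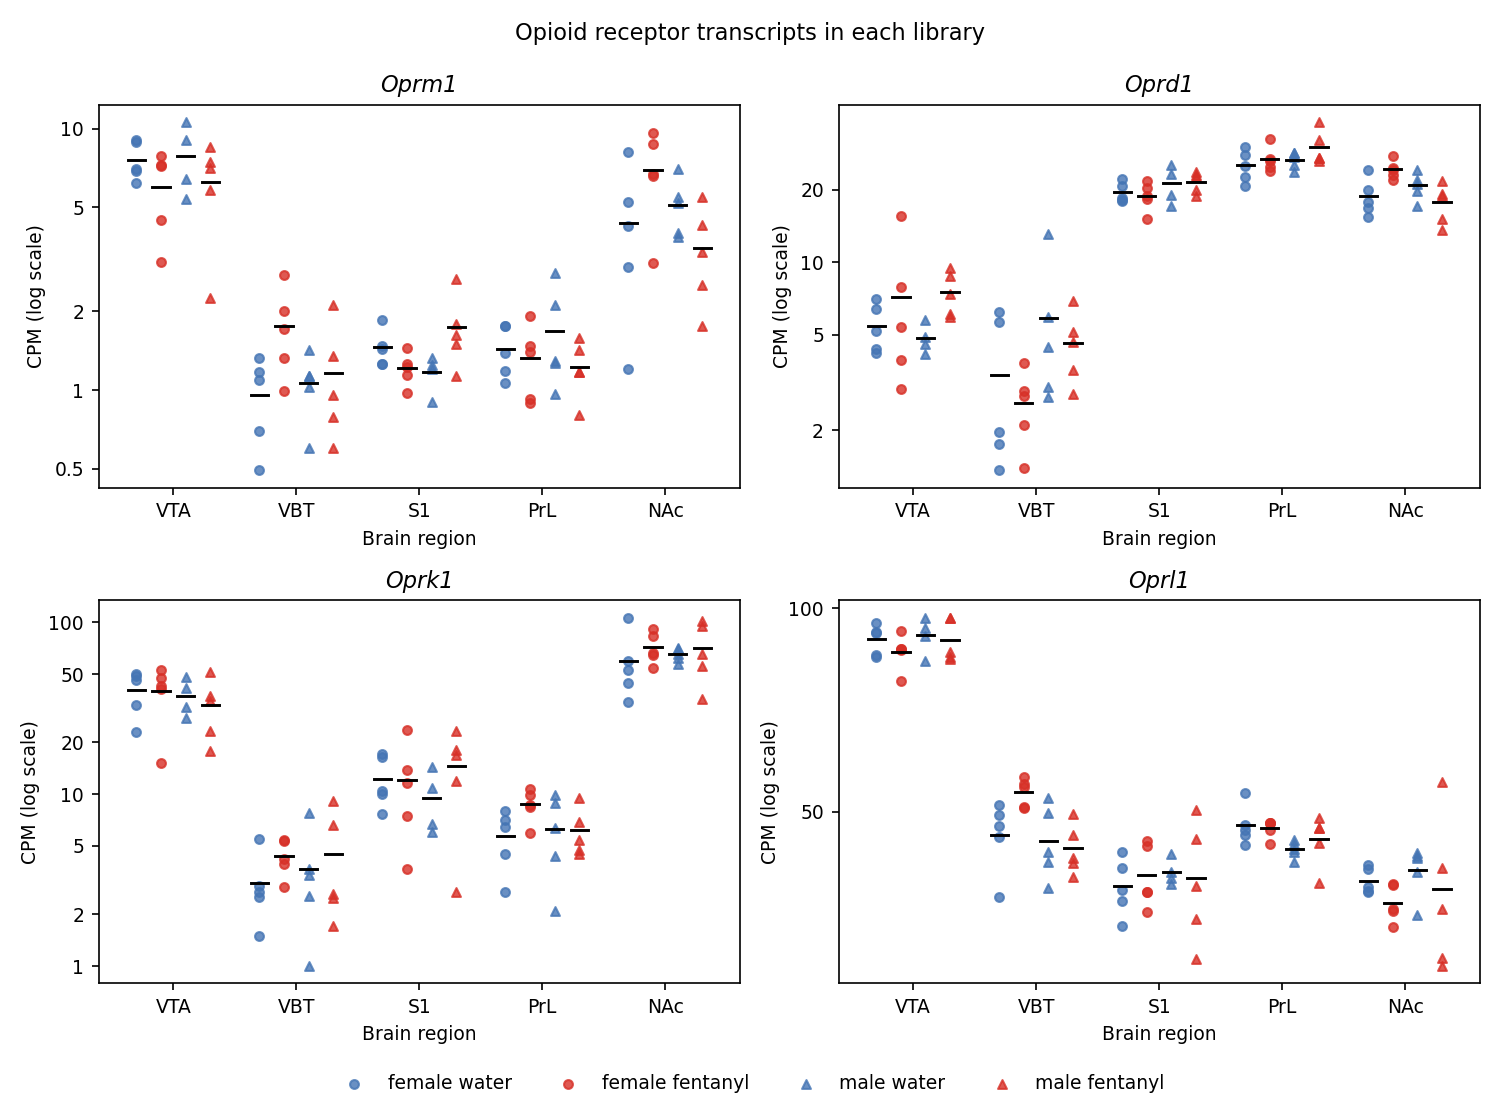
CPM (counts scaled to a library total of 1000000, log scale) of the 4 receptors in each of the 98 libraries, by brain region; circles are females, triangles males, blue water, red fentanyl, and black bars group means. Oprm1 and Oprk1 sit highest in VTA and NAc, Oprd1 in PrL, NAc and S1, and Oprl1 in VTA, and the exposure groups overlap in nearly every panel.

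Oprm1, the mu receptor that fentanyl acts on, was highest in VTA. Its level in VTA water libraries ran from 5.38 over a median of 7.01 to 10.6 CPM (mean 7.72 ± 1.73, SD, n = 9). In NAc it ran from 1.20 over 4.72 to 8.15 CPM (4.73 ± 1.97, n = 10). In PrL it ran from 0.962 over 1.34 to 2.80 CPM, in S1 from 0.896 over 1.26 to 1.86 CPM and in VBT from 0.493 over 1.11 to 1.42 CPM. Among water libraries, VTA and the 3 low regions do not overlap, while VTA and NAc do. With the fentanyl libraries included, VTA overlaps all of them. The log2 difference between VTA and VBT was 2.79 (95% interval 2.33 to 3.26, adjusted p = 4.14e-14 by edgeR), a 6.93-fold difference. VTA exceeded NAc by 0.71 (0.28 to 1.14, adjusted p = 0.00337 by edgeR), a call lost in fentanyl libraries alone (0.25, adjusted p = 0.311 by edgeR). NAc exceeded PrL by 1.51 (adjusted p = 1.35e-07 by edgeR). At the low end, S1 did not differ from PrL (difference -0.26, interval -0.73 to 0.20) nor VBT from S1 (-0.31, interval -0.79 to 0.16). VBT was below PrL by 0.57 (adjusted p = 0.0232 by edgeR). That call was lost without VBT female water 2 (adjusted p = 0.0549), VBT male water 2 (0.0518) or PrL male water 5 (0.0829) in the same edgeR test, and without the 5 libraries with neighbouring tissue (-0.48, adjusted p = 0.105 by edgeR), and in fentanyl libraries alone the difference had the other sign (0.16).

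Oprd1, the delta receptor, was high in cortex and NAc and low in thalamus and VTA. It ran from 20.7 over 26.5 to 30.1 CPM in PrL water libraries (26.02 ± 2.97, n = 10), from 15.5 over 19.95 to 24.3 in NAc (19.9 ± 3.08, n = 10) and from 17.2 over 19.1 to 25.5 in S1 (20.3 ± 2.86, n = 9). VTA ran from 4.15 over 4.91 to 7.07 CPM and VBT from 1.36 over 3.74 to 13.1. Among water libraries, the lowest of PrL, NAc and S1 lies above the highest of VTA and VBT. With the fentanyl libraries included, VTA overlaps S1 and NAc. PrL exceeded VBT by 2.52 on the log2 scale (interval 2.09 to 2.95, adjusted p = 7.66e-14 by edgeR) and VTA by 2.44 (adjusted p = 8.03e-13 by edgeR). S1 and NAc did not differ (0.12, interval -0.29 to 0.53), nor S1 and PrL (-0.36, interval -0.77 to 0.05). PrL exceeded NAc by 0.48 (adjusted p = 0.0396 by edgeR), a call lost in 13 of the 48 fits that each left out 1 library, with adjusted p up to 0.0691 (without PrL female water 3 or NAc female water 2). VTA and VBT did not differ in water libraries (0.09, interval -0.35 to 0.53), but without the 5 libraries with neighbouring tissue, which include the highest VBT value, VTA was higher by 0.48 (adjusted p = 0.0303 by edgeR). In the fentanyl libraries VTA was above VBT by 0.96 (adjusted p = 2.68e-05 by edgeR, a fit added after the data were seen).

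Oprk1, the kappa receptor for dynorphin, had the widest range. NAc water libraries ran from 34.2 over 60.6 to 106 CPM (62.3 ± 19.2, n = 10) and VTA from 23.1 over 41.4 to 50.2 (39.0 ± 10.1, n = 9). S1 followed with 6.04 over 10.4 to 17.1 CPM, PrL with 2.08 over 6.44 to 9.84 and VBT with 1.002 over 2.82 to 7.82. Among water libraries, NAc and VTA overlap with each other and with no other region. With the fentanyl libraries included, VTA also overlaps S1. All 10 differences between regions passed the test. NAc exceeded VBT by 4.10 on the log2 scale (interval 3.52 to 4.69, adjusted p = 5.69e-16 by edgeR), a 17.2-fold difference and the largest for any receptor. NAc exceeded VTA by 0.68 (adjusted p = 0.0178 by edgeR), but not without NAc female water 3, the library with the highest Oprk1 (0.53, adjusted p = 0.0615). S1 exceeded PrL by 0.84 (adjusted p = 0.0123) and PrL exceeded VBT by 0.83 (adjusted p = 0.00795), both by edgeR.

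Oprl1, the nociceptin receptor, was the most even in level. It ran from 83.7 over 91.9 to 96.7 CPM in VTA water libraries (90.5 ± 4.75, n = 9) and from 33.8 to 53.3 CPM in the water libraries of the other 4 regions. No library of another region reached VTA. VTA exceeded NAc by 1.16 on the log2 scale (interval 1.04 to 1.28, adjusted p = 2.97e-21 by edgeR), a 2.24-fold difference. VBT and PrL did not differ (0.05, interval -0.07 to 0.16), nor S1 and NAc (0.06, interval -0.06 to 0.18). VBT exceeded NAc by 0.32 (adjusted p = 3.34e-06 by edgeR) and S1 was below PrL by 0.22 (adjusted p = 0.0032 by edgeR). Its libraries were also the closest to each other, with a coefficient of variation over VTA libraries of 6.00% against 30.2% for Oprm1.

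Levels of different receptors can be compared only per length. Divided by the length of all exons, Oprl1 was the highest receptor in every library of VTA, VBT, S1 and PrL and in 16 of 20 of NAc. Of the summed level of the 4 (CPM per kb of exon), Oprl1 made up 88.7% ± 5.77 in VBT, 78.5% ± 2.42 in VTA, 61.8% ± 3.28 in S1, 61.5% ± 3.73 in PrL and 44.8% ± 8.03 in NAc (SD, n = 19 or 20). Oprd1 held 33.9% ± 3.98 in PrL and 29.5% ± 3.93 in S1, against 5.27% ± 2.65 in VTA. Oprk1 held 30.8% ± 6.71 in NAc and 13.4% ± 3.76 in VTA. Oprm1 was lowest, with 2.83% ± 0.90 in VTA, 2.60% ± 1.05 in NAc and 0.889% to 1.06% in the other 3 regions.

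The length used decides some of these orders. Most Oprm1 transcripts are short against its exon total (median 1500 bases), so its share was 6.74% ± 2.12 in VTA and 5.85% ± 2.27 in NAc per length of the longest coding transcript. On that scale Oprm1 was above Oprd1 in 17 of 19 VTA libraries, against 3 of 19 per exon length. In NAc, Oprk1 (40.8% ± 7.59) and Oprl1 (38.5% ± 8.27) then changed places, with Oprk1 above Oprl1 in 12 of 20 libraries against 4 of 20. Gene counts do not say which transcripts were present. The stacked bars of receptor shares show both scales.

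**Figure D2:**
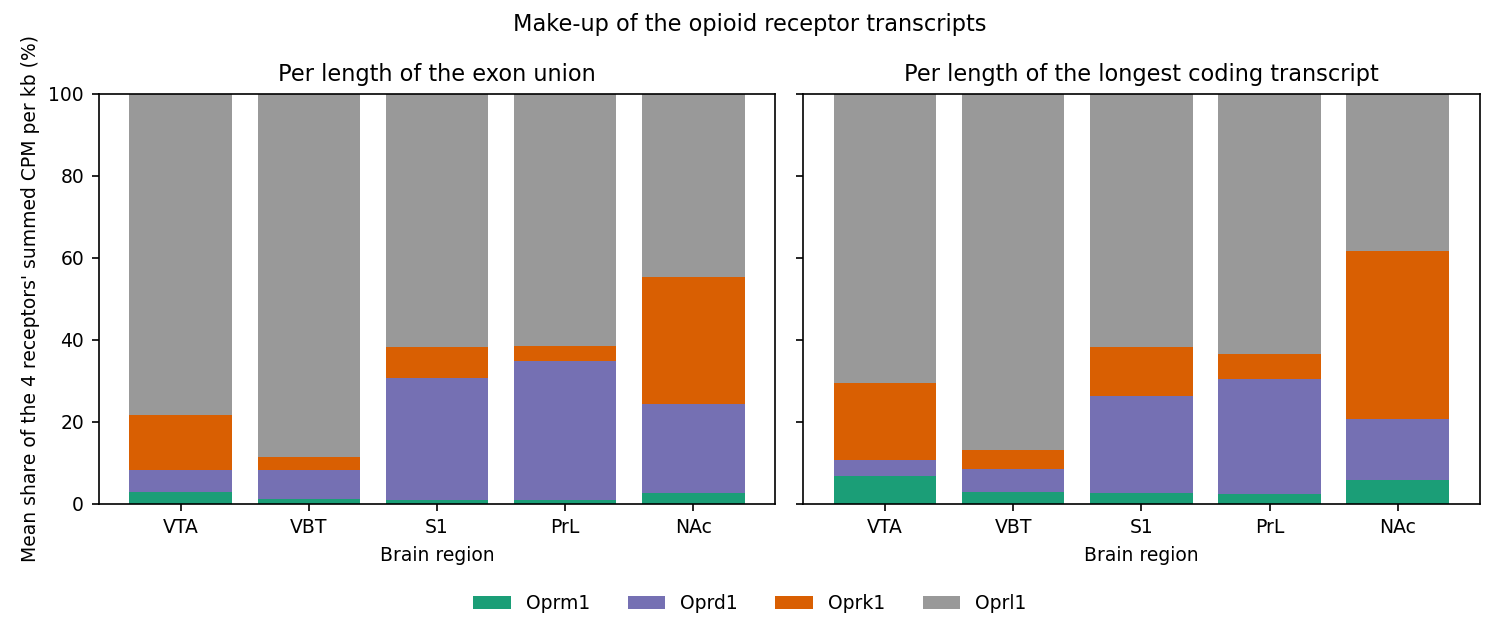
Mean share of each receptor in the summed CPM per kb of the 4, by region, over 19 or 20 libraries; left, per length of all exons, right, per length of the longest coding transcript. Oprl1 takes the largest part of the bar in VTA, VBT, S1 and PrL on both scales, and Oprd1 and Oprk1 take their largest parts in PrL and NAc.

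Fentanyl exposure was compared with water within each region and sex. None of the 40 receptor differences passed edgeR's test, the smallest adjusted p being 0.186, and 4 had an unadjusted p under 0.05, a share of all genes that ran from 7.15% (S1 males) to 34.7% (VTA males) over the 10 contrasts; DESeq2 and limma-voom also called none of the 40. Of all genes tested, the share called in females was 0.142% in S1, 0.021% in PrL and 0% in VTA, VBT and NAc alike. In males it was 22% in VTA, 0.662% in NAc and 0% in VBT, S1 and PrL alike. With both sexes averaged it was 23.1% in VTA, 1.03% in S1, 0.697% in PrL and 0% in VBT and NAc. None of the 20 receptor averages was called by edgeR. Oprd1 in VTA was the only average with an unadjusted p under 0.05 (unadjusted p = 0.0432, adjusted p = 0.128 by edgeR). Of all genes, the share with such a p in the averages ran from 8.49% in VBT to 35.4% in VTA. Calls were common only in VTA, in males and in the average of the sexes, and the receptors were not among them. The plot of fold changes with intervals shows all 40.

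**Figure D3:**
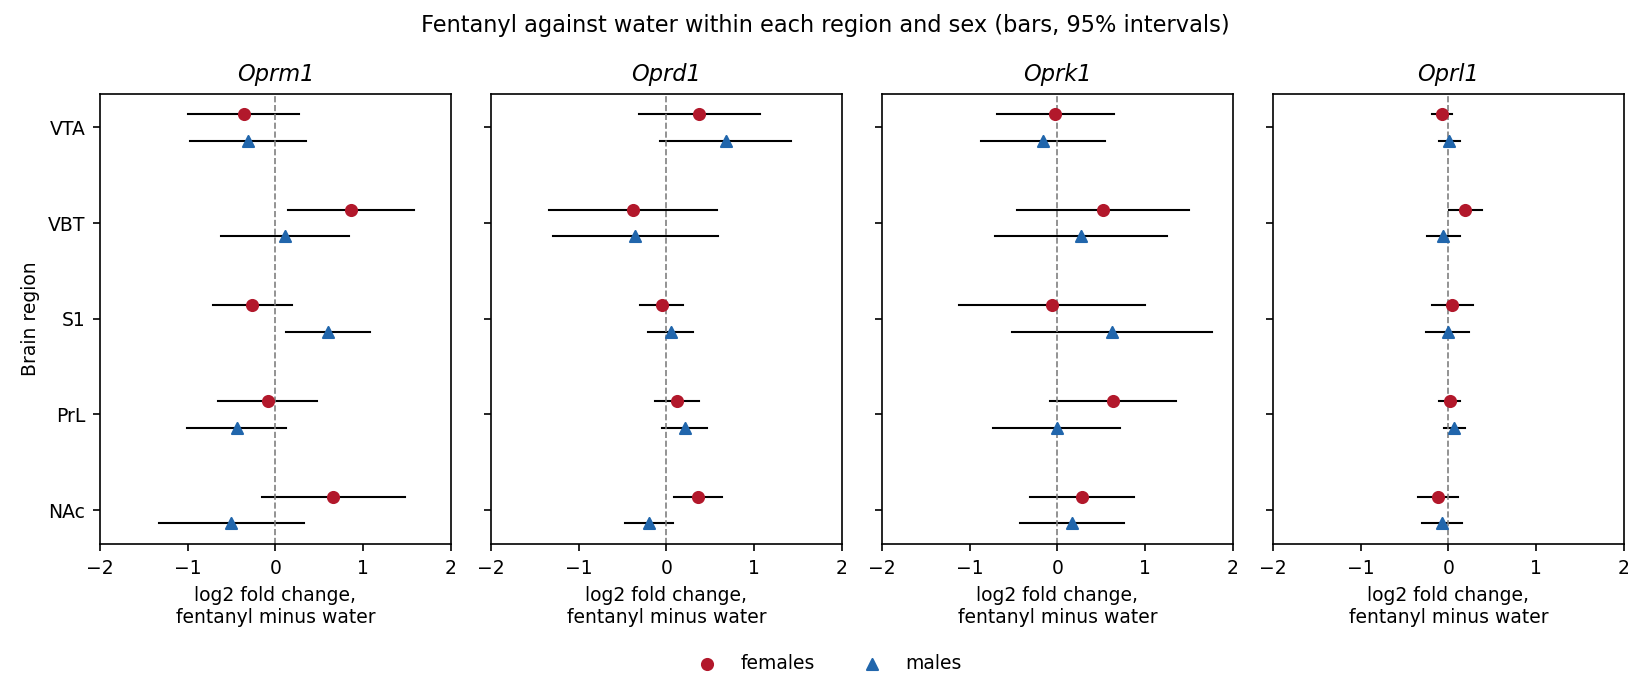
log2 fold change, fentanyl minus water, with 95% intervals from edgeR for each receptor, region and sex (circles females, triangles males; the dashed line is 0). The Oprl1 intervals are short and lie within -0.34 and 0.38, those of Oprk1 reach from -1.13 to 1.77, and no difference passed the adjusted test.

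Oprl1 was measured closely enough to bound any change. Its 10 log2 fold changes lay between -0.12 and 0.20 with standard errors of 0.05 to 0.12, and no interval reached beyond -0.34 or 0.38. In VBT of females it read 54.9, 56.3, 50.6, 50.9 and 54.3 CPM after fentanyl and 45.8, 37.4, 51.1, 47.6 and 49.4 CPM after water. There, 3 of the 5 fentanyl values exceed all water values, and the difference of 0.20 (0.01 to 0.38) had an unadjusted p of 0.0417 and an adjusted p of 0.615 by edgeR. The mean log2(CPM + 1) of 6 habenula markers in these punches was 1.08 ± 0.0941 after fentanyl and 0.83 ± 0.170 after water. VBT had the lowest mean of the 5 regions on this list (0.877, against 1.42 to 2.47). Whether the score follows habenula tissue in these punches was not tested. The striatal score was 3.43 ± 0.114 and 4.25 ± 1.10 (SD, n = 5 each). With the habenula score as a covariate, added after the data were seen, the Oprl1 difference was 0.03, and without VBT female water 2 and male water 3 it was 0.11.

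Oprm1 had the largest of the 40 fold changes, and their sign differed between groups. In VBT of females it read 2.76, 2.001, 1.72, 0.995 and 1.33 CPM after fentanyl and 1.10, 0.493, 1.32, 1.17 and 0.695 CPM after water. The groups overlap only through the lowest fentanyl library, and the log2 fold change was 0.86 (interval 0.14 to 1.58, unadjusted p = 0.021, adjusted p = 0.508 by edgeR). With the habenula score as a covariate it was 0.19, and without VBT female water 2 and male water 3 it was 0.68. Of the 6 habenula markers only 2 reached a mean of 1 CPM in VBT. In S1 of males it read 1.79, 1.13, 1.502, 2.66 and 1.63 CPM after fentanyl and 1.21, 1.33, 1.25 and 0.896 CPM after water, a log2 fold change of 0.60 (0.12 to 1.08, unadjusted p = 0.0169, adjusted p = 0.659 by edgeR). In S1 of females it was -0.27. These values rest on 22 to 107 counts in VBT of females and 34 to 96 in S1.

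In VTA, where Oprm1 is highest, it read 7.87, 7.17, 7.26, 4.46 and 3.08 CPM in females after fentanyl and 9.03, 8.90, 6.18, 6.88 and 7.01 after water. Males read 8.49, 7.47, 5.84, 2.25 and 7.06 after fentanyl and 9.07, 10.6, 5.38 and 6.39 after water. The lowest fentanyl libraries lie below all water libraries in both sexes while the others overlap, and the log2 fold changes were -0.36 (interval -0.99 to 0.27) in females and -0.31 (-0.98 to 0.35) in males. With the serotonin score as a covariate they were -0.39 in females and -0.145 in males. The lowest male library, VTA male fentanyl 4, had the highest cholinergic neuron score of VTA (3.65, others at most 2.78), a serotonin score of 2.28 and a dopamine neuron score of 4.78, and without it the male value was -0.10. The lowest female library, VTA female fentanyl 5, had the highest dopamine neuron score of its group (6.15), and without it the female value was -0.20. The part of punch content was not tested further, and a change of up to about 1 log2 unit downward lies within both intervals.

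In NAc, Oprm1 and Oprd1 had fold changes of opposite sign in the sexes. Oprd1 read 24.6, 27.7, 24.2, 23.2 and 22.1 CPM in females after fentanyl and 17.8, 15.5, 24.3, 16.8 and 20.02 after water, so 4 of the 5 water libraries lie below all fentanyl libraries and 1 lies among them. Males read 19.3, 18.9, 15.2, 21.8 and 13.6 CPM after fentanyl and 17.2, 24.3, 21.97, 19.9 and 21.1 after water. The log2 fold changes were 0.36 (interval 0.09 to 0.63, unadjusted p = 0.0115, adjusted p = 0.544 by edgeR) in females and -0.19 (-0.47 to 0.08, adjusted p = 0.465 by edgeR) in males.

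The male minus female difference of these Oprd1 effects was -0.56 (-0.94 to -0.17, unadjusted p = 0.0067, adjusted p = 0.157 by edgeR). With limma-voom and sample weights it was -0.59 with an adjusted p of 0.0253, and with DESeq2 the adjusted p was 0.0803. Over all settings tried, the adjusted p ran from 0.0253 to 0.318. For Oprm1 the female libraries read 9.59, 8.74, 6.59, 6.72 and 3.05 CPM after fentanyl and 2.95, 1.20, 8.15, 5.23 and 4.23 after water, and the male libraries 5.47, 3.37, 1.76, 4.28 and 2.52 after fentanyl and 4.005, 5.20, 6.98, 5.46 and 3.86 after water. All 4 groups overlap, and the Oprm1 difference between the sexes was -1.17 (-2.33 to -0.00, unadjusted p = 0.0493, adjusted p = 0.326 by edgeR). The remaining difference of the 20 with an unadjusted p under 0.05 was Oprm1 in S1 (0.86, unadjusted p = 0.0123, adjusted p = 0.957 by edgeR). Of all genes, 15.2% in NAc and 4.14% in S1 had an unadjusted p under 0.05 for this difference. No receptor and no gene at all was called for a difference between the sexes in the fentanyl effect by edgeR (0% of genes in each region). For this difference limma-voom called 1 receptor, Oprd1 in NAc, among 1302 genes there.

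Marker scores of the NAc punches are set beside these values. All 6 striatal markers and all 4 cholinergic markers were at a mean of 1 CPM or more in NAc. The striatal projection neuron score was 8.52 ± 0.251 in females after fentanyl and 7.85 ± 0.547 after water, against 8.37 ± 0.503 and 8.22 ± 0.218 in males (SD, n = 5). The cholinergic neuron score was 3.64 ± 0.378 and 2.98 ± 0.597 in females, and the cortical score 3.95 ± 1.26 and 4.90 ± 0.844, so the female groups stood further apart than the male groups, with overlapping ranges in all 3 scores. With the striatal score as a covariate, the Oprd1 fold change in females was 0.17 in place of 0.36, and the difference between the sexes was -0.43 (adjusted p = 0.188 by edgeR). The part of punch content in these differences was not tested further.

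Oprd1 in VTA of males is the 1 case of 40 in which the groups did not overlap, where 22.4% of all genes did not overlap, against 4.19% over all 10 contrasts. It read 6.09, 8.81, 5.93, 9.48 and 7.39 CPM after fentanyl and 4.15, 4.91, 4.58 and 5.78 after water. The log2 fold change was 0.68 (interval -0.07 to 1.42, unadjusted p = 0.0721, adjusted p = 0.186 by edgeR), in a contrast where 22% of all genes were called. Females read 2.98, 7.87, 15.5, 5.41 and 3.93 CPM after fentanyl and 7.07, 5.17, 4.38, 4.198 and 6.37 after water, with 1 fentanyl library, VTA female fentanyl 3, far above the rest. That punch had a dopamine neuron score of 4.49, against 5.71 to 6.15 in the other 4 of its group, and a GABA neuron score of 7.14, against 8.16 to 8.33. Without this library, which widens the spread estimate shared by the sexes, the male difference was called (0.68, adjusted p = 0.0488 by edgeR). The dopamine neuron score of the male punches was 5.20 ± 0.862 after fentanyl (n = 5) and 6.07 ± 0.354 after water (n = 4), and with this score as a covariate the male fold change was 0.31 (adjusted p = 0.578 by edgeR).

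**Figure D4:**
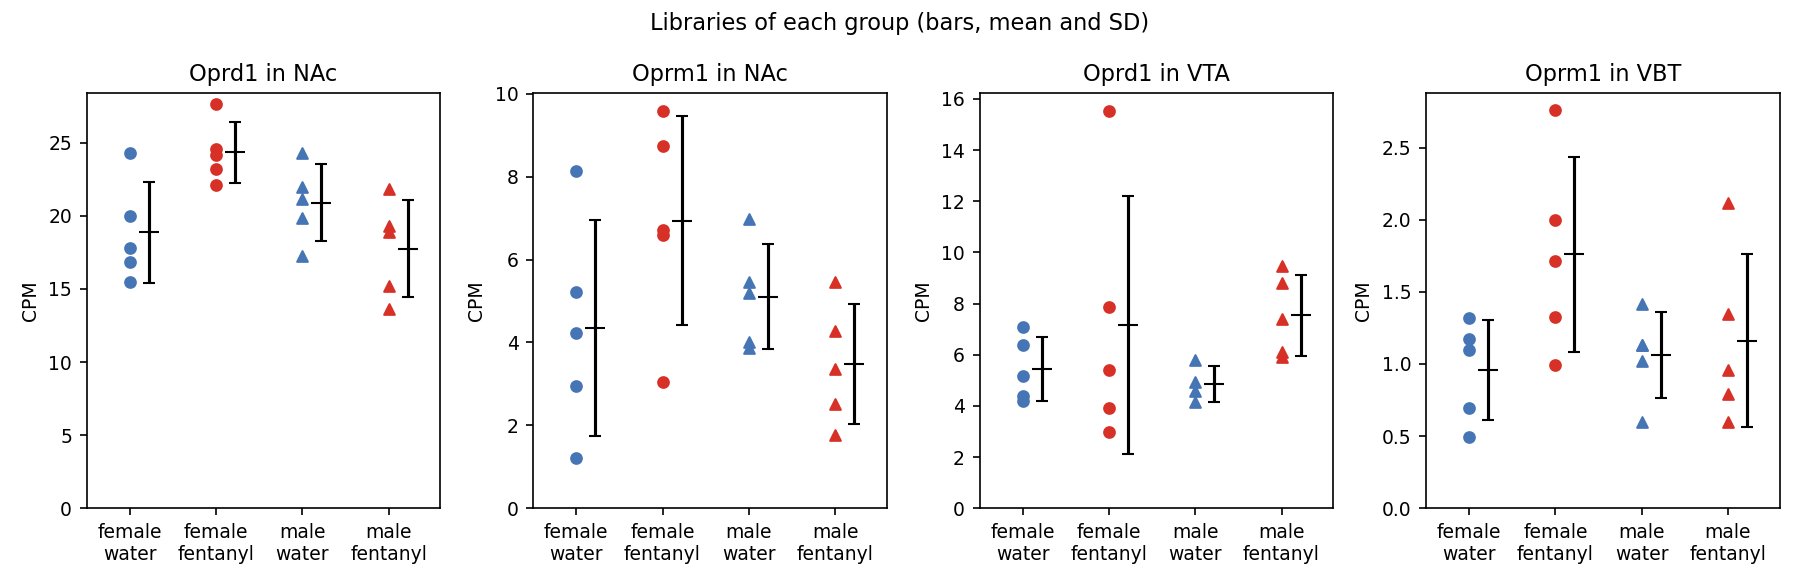
CPM of each library for Oprd1 in NAc, Oprm1 in NAc, Oprd1 in VTA and Oprm1 in VBT, by sex and exposure (circles females, triangles males, blue water, red fentanyl; bars are the mean and SD). In NAc the mean after fentanyl is above that after water in females and below it in males, with overlapping points, and in VTA of males the 5 fentanyl values of Oprd1, from 5.93 to 9.48, lie above the 4 water values.

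Oprk1 had wide intervals in every region, and in NAc and VTA the sign of its fold change turned with the region's marker score as a covariate. In NAc it read 83.3, 91.8, 65.9, 54.4 and 65.0 CPM in females after fentanyl and 34.2, 59.6, 106, 52.6 and 44.2 after water. The highest value is a water library, and the log2 fold change was 0.28 (interval -0.31 to 0.87). With the striatal score as a covariate it was -0.37 in females, and in males it went from 0.17 to -0.10. In VTA the Oprk1 fold changes were -0.03 in females and -0.16 in males, and 0.06 and 0.37 with the dopamine neuron score as a covariate. In VBT they were 0.52 in females and 0.27 in males, and 0.82 and 0.70 without VBT female water 2 and male water 3. With the habenula score as a covariate they were 0.26 and 0.20. In PrL of females the fold change was 0.63 (-0.09 to 1.36, unadjusted p = 0.0814, adjusted p = 0.564 by edgeR).

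The sexes were also compared in water libraries. None of the 20 receptor differences was called by edgeR, DESeq2 or limma-voom, and by edgeR none had an unadjusted p under 0.05. Of all genes, 3.4% (PrL) to 10.8% (VTA) had such a p. They lay between -0.37 (Oprk1 in S1) and 0.78 (Oprd1 in VBT) on the log2 scale, male minus female. In VBT, Oprd1 read 2.75, 3.03, 13.1, 5.90 and 4.46 CPM in water males and 5.65, 6.21, 1.96, 1.75 and 1.36 CPM in water females. The highest is VBT male water 3, whose striatal score was above its relay score. The share of all genes called was lowest in PrL (0.0472%) and highest in VBT (0.0898%), with 0.0504% in VTA, 0.0513% in NAc and 0.0557% in S1.

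Other genes of the pathway were counted from a list of 32, comprising 4 peptide precursors, G protein alpha subunits, GIRK channels, receptor kinases and arrestins, RGS proteins that switch G proteins off, and adenylyl cyclases. In VTA of males 8 of 32 were called by edgeR, 2 higher and 6 lower after fentanyl, a share of 25% against 22% of all genes. The share is close to that of all genes. Of those lower, the 4 with the smallest p were Adcy6, an adenylyl cyclase inhibited by Gi (-0.45 on the log2 scale, adjusted p = 0.00239 by edgeR), Grk6, a kinase that phosphorylates activated receptors (-0.41, adjusted p = 0.00296), Gnai2, a Gi alpha subunit (-0.29, adjusted p = 0.0118), and Adcy5, the main adenylyl cyclase of striatal neurons (-0.22, adjusted p = 0.0201). Both higher genes, named after their values were seen, were Gnai3, another Gi alpha subunit (0.20, adjusted p = 0.0302 by edgeR), and Kcnj3, a GIRK channel subunit (0.40, adjusted p = 0.0321). With offsets for GC content none of the 8 was called, with 846 genes called in place of 4355: Adcy6 was at -0.23 (adjusted p = 0.051 by edgeR), Grk6 at -0.14 and Gnai2 at -0.03, while Adcy5 (0.13) and Gnai3 (-0.02) had the other sign. With the few-gene library kept none of the 8 was called, among 42 genes in all. With the dopamine neuron score as a covariate, which was lower after fentanyl (5.20 against 6.07), Adcy6 and Grk6 were called and the other 6 were not. Without VTA male water 4, 2659 genes were called there.

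Elsewhere the pathway list hardly passed the test. No gene of the list was called in females of any region by edgeR, with 7 of the list in NAc (9.03% of all genes), 6 in VTA (12.7%), 5 in VBT (7.86%) and 3 each in PrL (9.53%) and S1 (13.9%) at an unadjusted p under 0.05. In males of NAc, Rgs10, an RGS protein, rose by 0.65 (adjusted p = 0.0375 by edgeR, 1 of 32 against 0.662% of all genes), a call that held in 11 of 20 fits that each left out 1 library. None was called in males of VBT, S1 or PrL, where 0 (8.7% of all genes), 1 (7.15%) and 5 (12%) had an unadjusted p under 0.05; in NAc it was 7, against 17.6% of all genes. In PrL 31 of the 32 passed the filter on low counts. With the sexes averaged, 7 of 32 were called in VTA (21.9% against 23.1% of all genes), 2 higher and 5 lower. The 4 with the smallest p were Gnai3 at 0.22, Adcy6 at -0.29, Grk6 at -0.24 and Adcy5 at -0.19. None of the 7 was called with offsets for GC content or with the few-gene library kept. With the dopamine neuron score as a covariate, Arrb2 was not called (adjusted p = 0.099 by edgeR). The rest of the 7 stayed called in that fit, with adjusted p up to 0.0472 (Kcnj3) by edgeR. In S1 the average called 1 of 32 against 1.03% of all genes: Arrb2, a beta-arrestin that desensitizes the receptors, was at 0.24 (adjusted p = 0.0457 by edgeR), a call that held in 4 of 19 fits that each left out 1 library and was lost with the cortical score as a covariate (adjusted p = 0.999). The median log2 fold change of the list was -0.12 in VTA males, where that of all genes was 0.00, and between -0.04 and 0.04 in the other 9 contrasts of fentanyl with water, where that of all genes lay between -0.01 and 0.01.

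In NAc and VTA, Oprk1 followed the marker genes of the dissected tissue. Across the 20 NAc libraries, with group means removed, Oprk1 and the striatal projection neuron score correlated with Pearson r = 0.972 and Spearman rho = 0.952 (permutation p = 1e-05 each, the smallest the permutations can give; adjusted p = 0.0002 over 20 relations). Without the 2 libraries farthest in score, r was 0.954. Across the 19 VTA libraries, Oprk1 and the dopamine neuron score correlated with r = 0.910 and rho = 0.826 (permutation p = 8e-05 and 0.00012; adjusted p = 0.0008 and 0.0012), and r was 0.906 without the 2 farthest. Neither list contains Oprk1. In VTA it also went with the striatal (r = 0.805, adjusted permutation p = 0.0174), habenula (0.778, 0.00793) and claustrum lists (0.777, 0.00784), and in NAc with the cholinergic (0.785, 0.0126) and GABA neuron lists (0.751, 0.0241) and against the habenula list (-0.797, 0.00784), so neither relation is particular to the markers of the dissected tissue. With the cortical score Oprk1 correlated in S1 with r = 0.106 and rho = 0.0877 (adjusted permutation p = 0.724 and 0.744). In PrL it was r = 0.283 and rho = 0.522 (adjusted permutation p = 0.47 and 0.106), and r was 0.489 without the 2 farthest libraries, PrL male water 3 and PrL female water 5.

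In VBT the relation had the other sign. Oprd1 and the thalamic relay score correlated with r = -0.817 and rho = -0.812 (permutation p = 0.00074 and 0.00028; adjusted p = 0.00493 and 0.00187), and r was -0.657 without the 2 farthest libraries. Oprk1 and that score correlated with r = -0.727 and rho = -0.656 (permutation p = 0.00128 and 0.00224; adjusted p = 0.0064 and 0.0112), and r was -0.593 without them. The libraries left out were VBT male water 3, which had the highest Oprd1 of the region (13.1 CPM) and the lowest relay score (6.41), and VBT female water 2 (6.21 CPM). The other 16 of the 20 relations between a receptor and the score of its region did not pass the adjusted test for r. Oprd1 in VTA had r = -0.523 (adjusted permutation p = 0.0875). Only the receptors were put to this test, so the share of all genes that would pass it is not known.

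**Figure D5:**
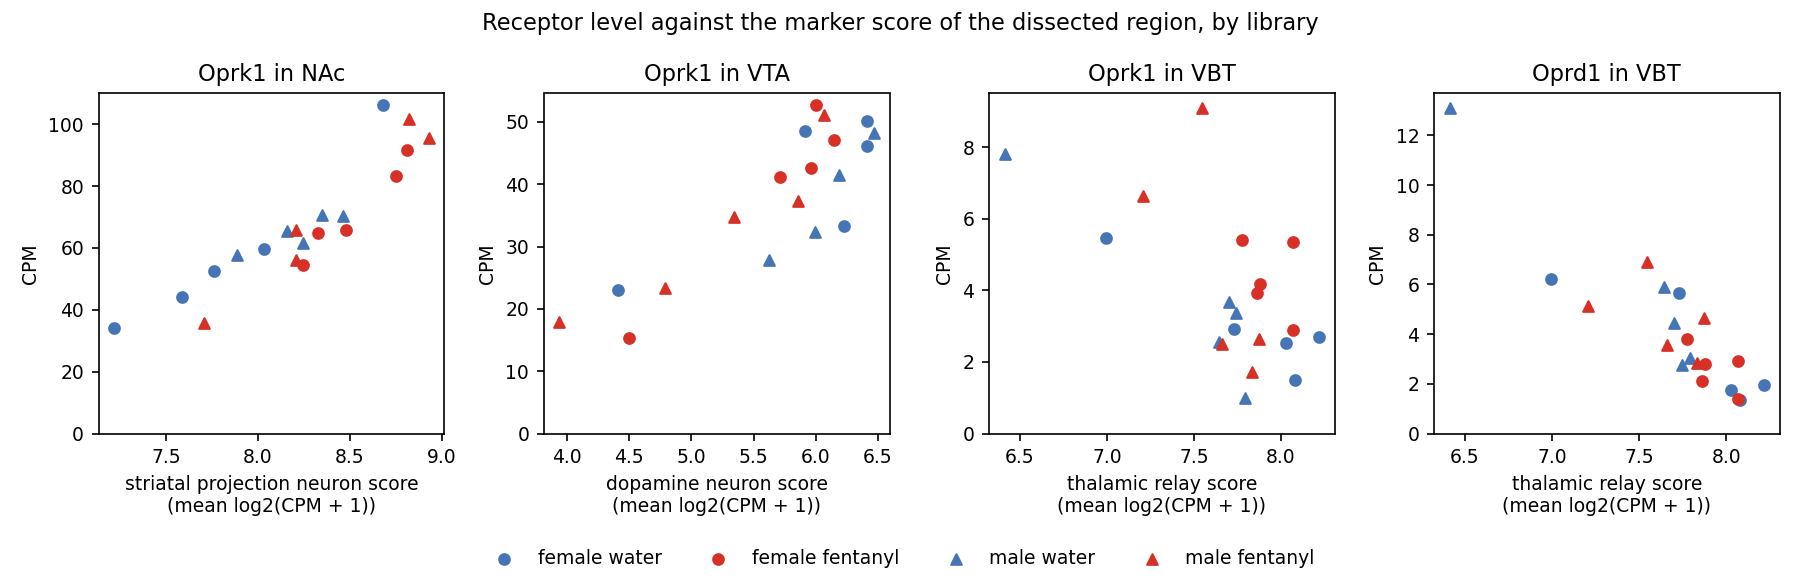
Receptor CPM against the marker score of the dissected region (mean log2(CPM + 1) of 6 marker genes) for each library: Oprk1 in NAc, VTA and VBT and Oprd1 in VBT (circles females, triangles males, blue water, red fentanyl). Oprk1 climbs with the score in NAc and VTA, and both receptors decline with it in VBT, where 1 male water library stands apart at a score of 6.41.

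Genes whose log2(CPM + 1) was most like each receptor were found over the 98 libraries among 13617 genes with a mean of at least 1 CPM; these correlations are descriptions, since the libraries share regions and punches. Oprd1 was most like Dlg2 (r = 0.958), a postsynaptic scaffold protein, followed by Gas7, Gda, Plcb1 and Tmem121b (r = 0.942). Oprl1 was most like Resp18 (r = 0.961), a protein of neuroendocrine secretory granules, then Nap1l5, Ubfd1, Nap1l3 and Lhx5. Oprk1 was most like Khdrbs2 (r = 0.917), an RNA-binding splicing factor, then Efcc1, Dock11, Kctd8 and Selenov. Oprm1 was most like Ubr1 (r = 0.890), a ubiquitin ligase, then Zdbf2, Peg10, Bptf and Zfp334. Between receptors, Oprm1 and Oprk1 were most alike (r = 0.768) and Oprd1 and Oprl1 least (r = -0.525).

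With the group means removed, so that only differences between libraries of one group count, most of the closest genes were other ones, with Bptf named for Oprm1 on both measures. For Oprk1 they were Gnb4 (r = 0.737), a G protein beta subunit, Cntnap3 and Lmo2. For Oprd1 they were Ano3 (r = 0.784), Sipa1l1 and Sptb, and for Oprl1 Magee1 (r = 0.796), Maged1 and Atxn10. For Oprm1 they were Prrc2c (r = 0.680), Bptf and Ash1l. The receptors themselves no longer resembled each other, with r between -0.307 (Oprd1 and Oprl1) and 0.155 (Oprm1 and Oprd1).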

How the data were processed

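SMART-Seq v4 libraries were made from 10 ng of RNA, per the labels. For each of 99 libraries the deposited file holds unnormalized read counts by Ensembl gene; HTSeq and GRCm38 come from the submitters' processing notes, and the aligner, annotation release and strand setting are not given in the sources used here. Symbols and exon lengths were taken from GENCODE M21 (55154 of 55335 genes matched). Counts were tested with edgeR 4.0.16 in R 4.3.3 (filterByExpr, TMM, robust quasi-likelihood F-test, Benjamini-Hochberg over all genes tested): per region on 4 sex and exposure groups, and once over the water libraries for regions. VTA male water 3 was left out for having counts in under 10000 genes. Marker scores are means of log2(CPM + 1), and correlations used 100000 permutations within groups. DESeq2 1.42.0 and limma 3.58.1 were alternatives. The members and lists were chosen with earlier results of these data known. Pathway genes are named at up to 4 called per contrast, and the genes most like a receptor at 5 over all libraries and 3 with group means removed. The fits were tested on simulated counts. No 2 libraries had equal counts at more than 2.50% of genes. Between 9.99% and 18.0% of reads fell outside exons and 1.50% to 2.23% were ambiguous.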

Additional observations from a re-analysis of the deposited data

How the results depend on the processing

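No receptor was called for fentanyl against water in one sex or with the sexes averaged under any alternative that kept the same libraries, and the number called stayed at 0. Without VTA female fentanyl 3 it was 1 in VTA of males (range 0 to 1 over single libraries left out; 22.2% of all genes called), and without VTA female fentanyl 1 it was 1 with the sexes averaged in VTA (0 to 1; 19.4%). For the sex difference of the fentanyl effect in NAc limma-voom gave 1 (6.68%). With the few-gene VTA library kept, 2 receptors in place of 4 were called between VTA and NAc (8840 of all genes in place of 13909) and 1 in place of 2 between S1 and PrL (2360 in place of 8015), and Oprd1 between VTA and VBT was -0.10 in place of 0.09 (-0.0083 to 0.30 over single libraries left out); that library also took Oprm1 in VTA of males to 0.010. In fentanyl libraries alone, Oprm1 differed by 0.0092 between VBT and S1, 0.16 between VBT and PrL and 0.15 between S1 and PrL.

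Some fold changes of fentanyl against water, none of them called, changed sign, among them Oprd1 in VBT (-0.38 in females and -0.35 in males) and Oprk1 in NAc of females (0.28). With reads outside exons as a covariate they were, in females, 0.015 for Oprk1 in VTA, -0.035 for Oprl1 in S1, and 0.29, -0.18 and -0.053 for Oprm1, Oprd1 and Oprl1 in PrL, and in males, for Oprd1, 0.17 in VBT, -0.017 in S1 and -0.044 in PrL. With the marker score they were, in females, 0.060 for Oprk1 in VTA, -0.093 for Oprl1 in S1, 0.029 and -0.033 for Oprm1 and Oprl1 in PrL, and -0.37 and 0.032 for Oprk1 and Oprl1 in NAc, and in males 0.37 and -0.10 for Oprk1 in VTA and NAc and 0.066 and -0.041 for Oprd1 in VBT and S1. With limma-voom they were 0.019 (Oprk1, VTA males), 0.14 and 0.077 (Oprd1, VBT females and males), 0.051 (Oprl1, S1 males) and 0.039 (Oprk1, PrL males). Offsets for GC content gave 0.018 for Oprk1 in S1 females and 0.019 in PrL males, offsets for length 0.0079 and 0.017 for the same and 0.0016 for Oprl1 in S1 males, and no filter 0.0018 for Oprk1 in PrL males. Without the 5 libraries with neighbouring tissue Oprd1 in VBT was 0.15 in males and -0.075 in females, and Oprk1 in PrL males 0.091, with the habenula score Oprm1 in VBT males was -0.0053, and with the serotonin score Oprl1 in VTA males was -0.0087. Of the pathway genes called in VTA, sign changes came with offsets for GC content (in males Gnai3 -0.019, Gnaz 0.0032 and Adcy5 0.13, and with the sexes averaged Adcy5 0.067) and with the few-gene library kept (in males Gnai2 0.027, Gnai3 -0.25, Gnaz 0.14, Arrb2 0.081 and Kcnj3 -0.32, and with the sexes averaged Gnai3 -0.0056 and Kcnj3 -0.046). The cause was not tested.

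Leaving out single libraries gave these ranges where the sign changed. In VTA they were -0.13 to 0.57 for Oprd1 and -0.17 to 0.18 for Oprk1 in females, and -0.023 to 0.040 for Oprl1 in males. In VBT of males they were -0.19 to 0.27 for Oprm1, -0.14 to 0.71 for Oprk1 and -0.53 to 0.15 for Oprd1. In S1 they were -0.43 to 0.17 for Oprk1, -0.010 to 0.099 for Oprl1 and -0.12 to 0.023 for Oprd1 in females, and -0.097 to 0.081 for Oprl1 and -0.045 to 0.17 for Oprd1 in males. In PrL they were -0.26 to 0.022 for Oprm1 and -0.0079 to 0.058 for Oprl1 in females and -0.22 to 0.21 for Oprk1 in males, and in NAc of males -0.21 to 0.0053 for Oprl1.

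Counts over all genes moved more than the receptors did. In VTA of males the 4355 genes called became 42 with the few-gene library kept and at most 6520; in NAc of males the 129 ran from 0 to 1512, in S1 of females the 28 from 0 to 406 and in PrL of females the 4 from 0 to 45. With the sexes averaged the 4580 in VTA ran from 60 to 5817, the 203 in S1 from 0 to 645 and the 133 in PrL from 0 to 778. Without the 5 libraries with neighbouring tissue the counts in PrL were 48 with the sexes averaged and 1 in females. In no comparison did every same-numbered pair of libraries correlate above 0.1: in VTA of females all 5 pairs were positive (0.0719 to 0.582, mean 0.245), and across regions the mean over 92 pairs was 0.0633. With the replicate block the number of receptors called was 0 in every contrast of exposure or sex, and NAc males had 2 genes called in place of 129. Oprm1, at 19 counts in its lowest library, limits what can be seen in VBT, S1 and PrL.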

Other observations

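Receptor levels were also set against 14 marker lists other than that of the dissected region, a step added after seeing the data. Over 280 relations within regions (group means removed, permutation p adjusted by Benjamini-Hochberg), 20 had an adjusted p under 0.05. The share among all genes was not computed here either. In S1, where Oprk1 ran from 2.69 to 23.5 CPM, it followed the claustrum list (Nr4a2, Gnb4 and Ntng2) with r = 0.917 and rho = 0.907 (adjusted permutation p = 0.0028 for each, n = 19; r = 0.884 without the 2 farthest libraries). Gnb4 is also the gene most like Oprk1 over all regions with group means removed (r = 0.737), so the relation in part repeats that search. With Nr4a2 and Ntng2 alone, r was 0.886 and rho 0.911 (unadjusted permutation p = 2e-05 each; r = 0.841 without the 2 farthest). These 3 genes are markers of the claustrum, where the kappa receptor is known to be abundant, and are also expressed by other cortical neurons. In PrL, Oprk1 followed the striatal list with r = 0.717 and rho = 0.750 (adjusted permutation p = 0.0149 and 0.0126, n = 20; r = 0.702 without the 2 farthest). In VBT, Oprd1 followed the cholinergic neuron list (Chat, Slc18a3, Slc5a7 and Lhx8) with r = 0.883 and rho = 0.878 (adjusted permutation p = 0.00784 and 0.00467, n = 20; r = 0.808 without the 2 farthest). There Oprd1 also followed the microglia (r = 0.808), oligodendrocyte (0.801), claustrum (0.752) and GABA neuron (0.735) lists, each with an adjusted permutation p under 0.05 for r, so the relation is not particular to the cholinergic list. Also in VBT, where its mean is the lowest of the 5 regions, the habenula list went with Oprm1 (r = 0.709, rho = 0.725, adjusted permutation p = 0.0234 and 0.0351) and with Oprl1 (r = 0.714, rho = 0.711, adjusted permutation p = 0.0386 and 0.0274), and Oprl1 ran against the striatal list (r = -0.766, rho = -0.665, adjusted permutation p = 0.0234 and 0.0628). Without the 2 farthest libraries these r were 0.589, 0.638 and -0.555. In NAc, Oprk1 ran against the cortical list with r = -0.827 and rho = -0.878 (adjusted permutation p = 0.00784 and 0.0028, n = 20; r = -0.824 without the 2 farthest). What the punches held beside the named region was not measured in another way.

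The library left out, VTA male water 3, held 0 counts of Oprm1 and of Oprd1, with 85.3 CPM of Oprk1 and 88.0 CPM of Oprl1. With few genes detected, its scores were low on lists of unrelated cells: 1.36 for microglia and 2.76 for endothelium, against at least 4.40 and 5.67 in the other VTA libraries, and 1.21 for dopamine neurons, against at least 3.94. Its thalamic relay score was 7.02, above the other VTA libraries (3.79 to 4.94) and within the 6.41 to 8.22 of VBT. Its Oprk1 and Oprl1 lay above every VBT library (at most 9.09 and 56.3 CPM). Its Oprk1 also lay above every other VTA library (at most 52.7 CPM), and its Oprl1 within the 78.03 to 96.8 CPM of VTA. Whether its label is right was not tested.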
